A study of Mus musculus with 3 samples.

Results

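The regions described here are the starts of olfactory receptor genes in mouse embryonic stem (ES) cells. All autosomal genes whose symbol begins with Olfr were taken from the GENCODE vM1 annotation of mm9, which gave 1243 gene models on 17 chromosomes. Each region spans 1 kb on either side of the annotated transcription start site (TSS). CpGs covered by more than 96 observations in the REST knockout library were left out, and a region was kept when at least 10 observations remained in that library. This kept 1025 of the 1243 starts (82.5%), among 32438 autosomal gene starts of any kind that met the same minimum. The 218 starts that were left out include 21 with no observation at all. Starts just inside the minimum, with 10 or 11 observations, numbered 49 and had a median methylation of 70.0%. The 45 starts just outside it, with 8 or 9 observations, had a median of 66.7%. Of the 1025, 923 are annotated as protein coding, 98 as pseudogenes and 4 as processed transcripts.

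The first group is 1 library of whole-genome bisulfite sequencing (WG-BisSeq) from REST knockout ES cells of the Black Agouti 129 strain. REST is a zinc finger repressor of neuronal genes. The second group is CTCF ChIP-BisSeq of wild type ES cells of a Mixed (129-C57Bl/6) background, in 2 replicates. In ChIP-BisSeq, DNA precipitated with an antibody against the insulator protein CTCF is bisulfite sequenced, and each of these libraries was made from DNA pooled over 5 precipitations. Genotype, strain and assay all change together between the groups and cannot be told apart, and nothing in the labels states that the replicates come from separate cultures. No olfactory tissue is among the samples, so the measurements are of these genes in cells that are not olfactory neurons. Deleted sequence was checked at Rest on chromosome 5, where the exon that starts at 77695221 held 3 knockout observations over 35 CpGs and the exon at 77696957 held 12 over 41 CpGs, against 1192 over the 108 CpGs of the last exon. Among 6 ES cell marker genes, Sox2 was at 2.71%, Pou5f1 at 4.11%, Zfp42 at 13.3%, Dppa4 at 17.2% and Nanog at 22.7% methylation around the start in the knockout library, and Esrrb at 75.7% around the start that the annotation gives.

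Olfactory receptors are G protein-coupled receptors that bind odorants on the cilia of olfactory sensory neurons. They form the largest gene family of the mouse and lie in clusters on many chromosomes, each gene usually with its coding sequence in a single exon. A sensory neuron expresses 1 allele of 1 receptor gene while the other members remain silent, and other tissues express few of them. Class I receptors, related to those of fish, form a single cluster on chromosome 7 around the beta-globin genes, and class II receptors make up the remainder. CpG islands, dense groups of CpGs that are usually free of methylation, often lie at the starts of other genes, while CpGs elsewhere tend to carry it.

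The following stretches are shown because the members with the least methylation or the most CTCF ChIP coverage carry it there, and because Olfr283 offers a methylated counterpart to Olfr94. They were read from mm9 on the minus strand of the genome, the strand of all 4 genes, and CpGs are in capitals.
Olfr94, coding exon, chr17:37334047-37334196: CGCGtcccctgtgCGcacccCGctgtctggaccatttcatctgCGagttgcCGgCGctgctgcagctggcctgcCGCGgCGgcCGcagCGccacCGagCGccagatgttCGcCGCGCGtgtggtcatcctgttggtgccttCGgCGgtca
Olfr283, coding exon, chr15:98208719-98208868: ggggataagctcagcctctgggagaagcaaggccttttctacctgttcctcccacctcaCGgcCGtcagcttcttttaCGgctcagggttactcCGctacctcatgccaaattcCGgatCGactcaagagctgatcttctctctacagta
Olfr658, upstream of the TSS, chr7:111795820-111795969: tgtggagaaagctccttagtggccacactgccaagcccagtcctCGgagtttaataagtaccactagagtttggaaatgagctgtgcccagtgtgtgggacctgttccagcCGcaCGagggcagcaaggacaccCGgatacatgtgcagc
Olfr1069-ps1, first intron, chr2:86304983-86305082: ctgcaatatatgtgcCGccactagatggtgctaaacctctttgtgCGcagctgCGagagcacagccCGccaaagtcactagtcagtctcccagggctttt
The first stretch holds 20 CpGs in 150 bp, of which 22 of 904 knockout observations were methylated (2.43%, exact 95% interval 1.53 to 3.66). The stretch at the same distance in Olfr283 holds 6 CpGs, with 140 of 169 observations methylated (82.8%, 76.3 to 88.2). The stretch of Olfr658 holds 4 CpGs at 16.3% of 49 observations, and that of Olfr1069-ps1 holds 4 at 46.2% of 13. The latter had 0 of 125 observations methylated in ChIP-BisSeq replicate 1 (upper limit 2.91%) and 11.0% of 109 in replicate 2. All intervals are exact binomial (Clopper-Pearson) intervals that cover counting error only, since several CpGs can be read on the same molecule and PCR copies are not independent.

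Olfactory receptor starts were covered thinly. In the knockout library they had a median of 42 observations per start, against 458 at the other gene starts. They hold few CpGs, with a median of 11 per region against 39 at the other starts. Coverage per CpG was 8.27 observations at receptor starts and 21.3 at other starts, while the mean over all autosomal CpGs within the coverage limit was 8.06. In ChIP-BisSeq the medians were 1 observation per start in replicate 1 and 5 in replicate 2. No observation was made at 481 receptor starts in replicate 1 and at 97 in replicate 2, and at least 10 were made at 92 and 254, respectively. With the replicates pooled, 384 starts reached 10 observations. Receptor genes include near-identical copies and pseudogenes, so placement of reads among them is uncertain and was not tested.

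In the REST knockout library most receptor starts were methylated. Their median methylation was 66.7%, with quartiles at 56.1% and 75.3% and a range from 5.72% to 100%. Summed over all starts, 71517 of 108060 observations were methylated (66.2%, 65.9 to 66.5). Methylation lay between 50% and 80% at 688 starts, between 20% and 50% at 166, at 80% or more at 163 and below 20% at 8. The 31413 other gene starts had a median of 39.1%, and 43.3% of them lay below 20%, against 0.780% of the receptor starts. Other protein-coding genes had a median of 10.4% over 19410 starts. Pseudogenes of the receptor family did not stand far from the protein-coding members, at 65.6% and 67.3%, and 527 models that begin at the start codon had a median of 66.7%, against 67.7% for 376 that begin upstream of it.

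Part of the spread among receptor starts is counting error. The SD over starts was 16.1 percentage points, of which counting alone would give 8.49. Among the 250 starts with at least 100 observations the SD was 10.9, against 3.35 from counting, and their median was 70.4%. The 375 starts with 10 to 29 observations had an SD of 19.6 and a median of 66.7%. Values below 50% were found at 85 of those 375 thinly covered starts and at 11 of the 250 deeply covered ones, which also hold more CpGs (median 18 against 8).

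Receptor genes lacked the deep dip of methylation that other genes as a whole had at the TSS, although methylation was somewhat lower in the bin just downstream of it. In bins of 250 bp over 3 kb on either side, summed knockout methylation stayed between 60.6% and 69.7%, and it was 68.7% just upstream of the TSS, 64.6% just downstream and 68.0% in the bin after that. As a mean over starts, in which deeply covered starts weigh no more than others, the bin just downstream was the lowest of all, at 64.1% (728 starts), between 71.2% (403 starts) and 70.0% (883 starts) in the bins beside it. In ChIP-BisSeq the summed methylation of this bin was 54.0% of 792 observations in replicate 1, between 75.1% and 85.1% in the bins beside it, and 54.9% of 1458 in replicate 2, between 71.5% and 75.5%. Without Olfr94 and Olfr95 the bin was at 55.3% and 60.8%, and other bins of the ChIP-BisSeq profile were as low, down to 44.8% in replicate 1 at the upstream edge. Olfr1069-ps1 and Olfr658, both well covered in ChIP-BisSeq, were not left out. Olfr1069-ps1 held 142 and 129 observations within 250 bp downstream in replicates 1 and 2, at 2.82% and 12.4%. Olfr658 held 243 and 383 between 150 bp upstream and 300 bp downstream, at 19.3% and 15.1%. The ChIP-BisSeq value of this bin thus leans on a few members. The differences between bins were not tested. At the other gene starts the summed knockout profile reached its lowest value of 8.58% just downstream of the TSS and its highest of 49.1% at the outer edge. As a mean over starts, the other genes were at 37.5% just downstream and at 66.6% and 66.5% at the outer edges. Receptor genes were at 68.4% and 68.9% at those edges by the same measure, so the flanks differed little. CpG number differed as well. Receptor genes had 1.01 CpGs per start in the bin upstream of the TSS and at most 2.62 in the bin beginning 250 bp downstream, whereas other genes had 9.68 and up to 12.4. Other starts with 6 to 20 CpGs lacked the dip as well, with summed knockout methylation of 65.9% just upstream and 67.9% just downstream. At the outer edges they were at 47.5% and 50.0% in the sum, but at 68.8% and 70.4% as a mean over starts. Within the 1 kb regions, receptor genes held 4.01 CpGs upstream and 8.74 downstream of the TSS, with summed methylation of 66.5% and 66.1%. At the 291 starts with at least 10 observations on each side, the downstream side was lower at 146 and higher at 144, with a median difference of -0.26 percentage points. Starts of annotated models are approximate for this family: 62 models have their start codon more than 1 kb from the TSS, and 122 have none.

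**Figure D1:**
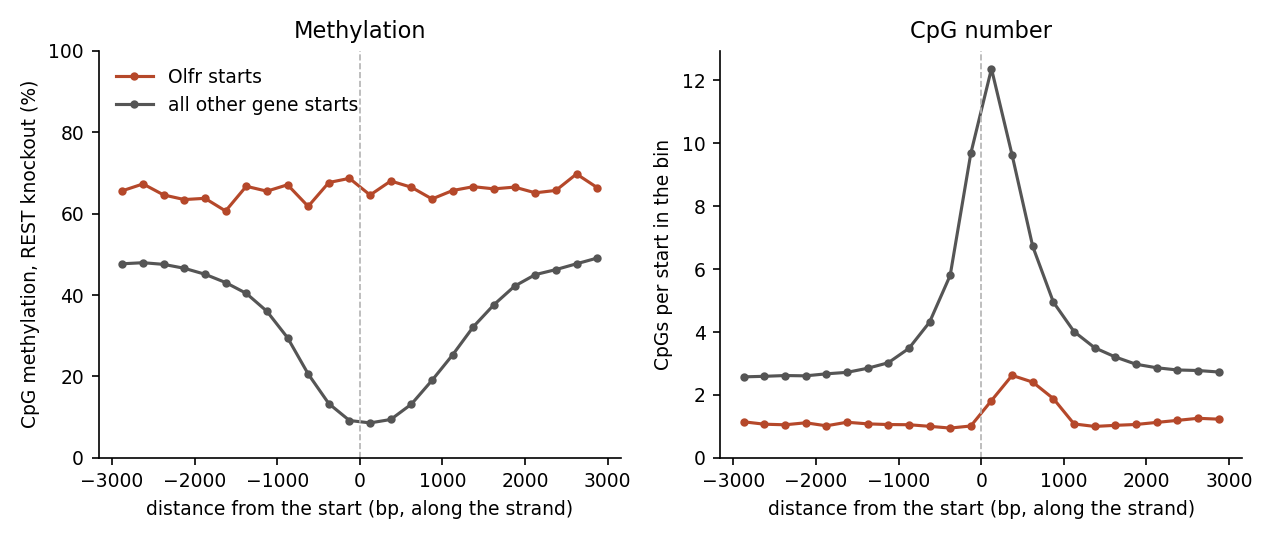
CpG methylation in the REST knockout library (left, percent of summed observations) and CpGs per start (right) in bins of 250 bp by distance from the TSS in bp, for 1025 Olfr starts and 31413 other gene starts. The Olfr line lies between 60.6% and 69.7% throughout, while the line of the other genes falls to 8.58% at the start, where their CpG number peaks. Other starts with 6 to 20 CpGs, not drawn separately, were at 67.9% just downstream of the start.

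The contrast with other genes followed the number of CpGs. Among starts with 1 to 5 CpGs the median knockout methylation was 64.7% for 65 receptor genes and 64.3% for 375 other genes. With 6 to 10 CpGs the medians were 64.8% (427 starts) and 67.1% (2157). With 11 to 20 CpGs they were 67.8% (428 starts) and 70.3% (5911). In these bins, which hold most of the family, receptor starts were therefore about as methylated as other starts of like CpG number, and over starts with 6 to 20 CpGs the difference of medians was -3.03 percentage points, against 27.6 over all starts. With 21 to 40 CpGs the receptor median was 73.6% (92 starts) and that of other genes 69.4% (7550), and none of the receptor starts but 5.30% of the others lay below 20%. Above 40 CpGs the medians were 61.0% for 13 receptor starts and 6.76% for 15420 other starts. Across the 1025 receptor starts, which share 1 library and differ in depth, CpG number and methylation had a Spearman's rho of 0.17.

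**Figure D2:**
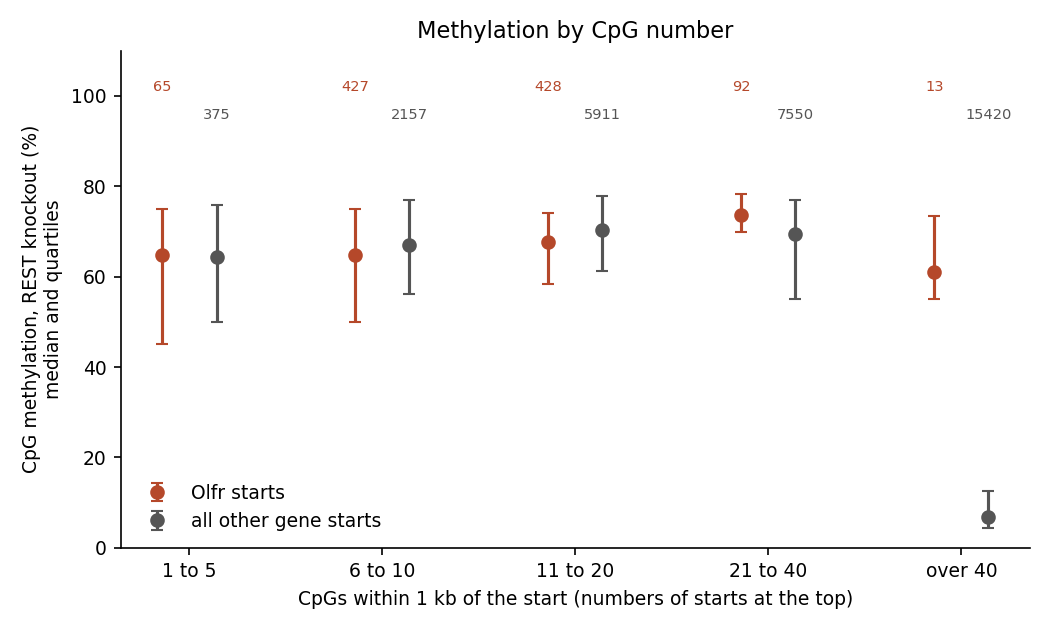
REST knockout methylation (percent, median with quartiles as bars) by the number of CpGs within 1 kb of the start, for Olfr starts and all other gene starts, with the number of starts at the top. The sets lie within 5 percentage points of each other up to 40 CpGs and separate above that, at 61.0% for 13 Olfr starts and 6.76% for 15420 others.

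The 13 CpG-dense receptor starts were covered deeply, with 544 to 2587 knockout observations each. Most of their CpGs (75.6%) lie downstream of the TSS, and the median number upstream was 12. On chromosome 15, where 5 of them lie, methylation was 87.3% at Olfr283, 84.1% at Olfr281, 78.2% at Olfr282, 73.1% at Olfr284 and 61.0% at Olfr279. On chromosome 11, Olfr315 was at 73.4% and Olfr222 at 59.9%. On chromosome 7, Olfr1349 was at 58.1% and Olfr1344 at 41.6%, while Olfr750 on chromosome 14 was at 65.9% and Olfr718-ps1 on chromosome 5, annotated as protein coding despite its name, at 55.0%. Of these 11 starts, 10 were at least 50% methylated and none was below 20%. Pooled ChIP-BisSeq gave 45.8% at Olfr1344 and between 67.8% and 97.6% at the other 10. Other genes with more than 40 CpGs but at most 12 upstream, a layout like that of the receptor genes, had a median of 11.1% over 930 starts, of which 69.0% lay below 20% and 15.4% at 50% or above. These bounds on CpG number were chosen after the values had been seen.

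The remaining CpG-dense members, Olfr94 and Olfr95, were the least methylated receptor starts with at least 30 observations. These neighbours lie on the minus strand of chromosome 17, with TSS positions of 37334956 and 37348812. At Olfr94, which has 85 CpGs, methylation was 5.72% of 2587 observations in the knockout (4.86 to 6.69), 4.19% of 191 in ChIP-BisSeq replicate 1 and 5.99% of 284 in replicate 2. At Olfr95, which has 46 CpGs, it was 14.4% of 1443 (12.6 to 16.3), 25.9% of 85 and 12.0% of 299. Both members were thus low in all 3 libraries. The low methylation lay inside the genes. Downstream of the TSS, Olfr94 had 5.11% of 2543 knockout observations methylated and upstream 40.9% of 44, and for Olfr95 the values were 12.4% of 1384 and 62.7% of 59. The coding stretch of Olfr94 printed above, 760 to 909 bp downstream of the TSS, was at 2.43% in the knockout, 2.29% in replicate 1 and 4.41% in replicate 2. CTCF ChIP coverage of these starts, relative to knockout coverage, had log2 ratios of -0.55 for Olfr94 and -0.09 for Olfr95.

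**Figure D3:**
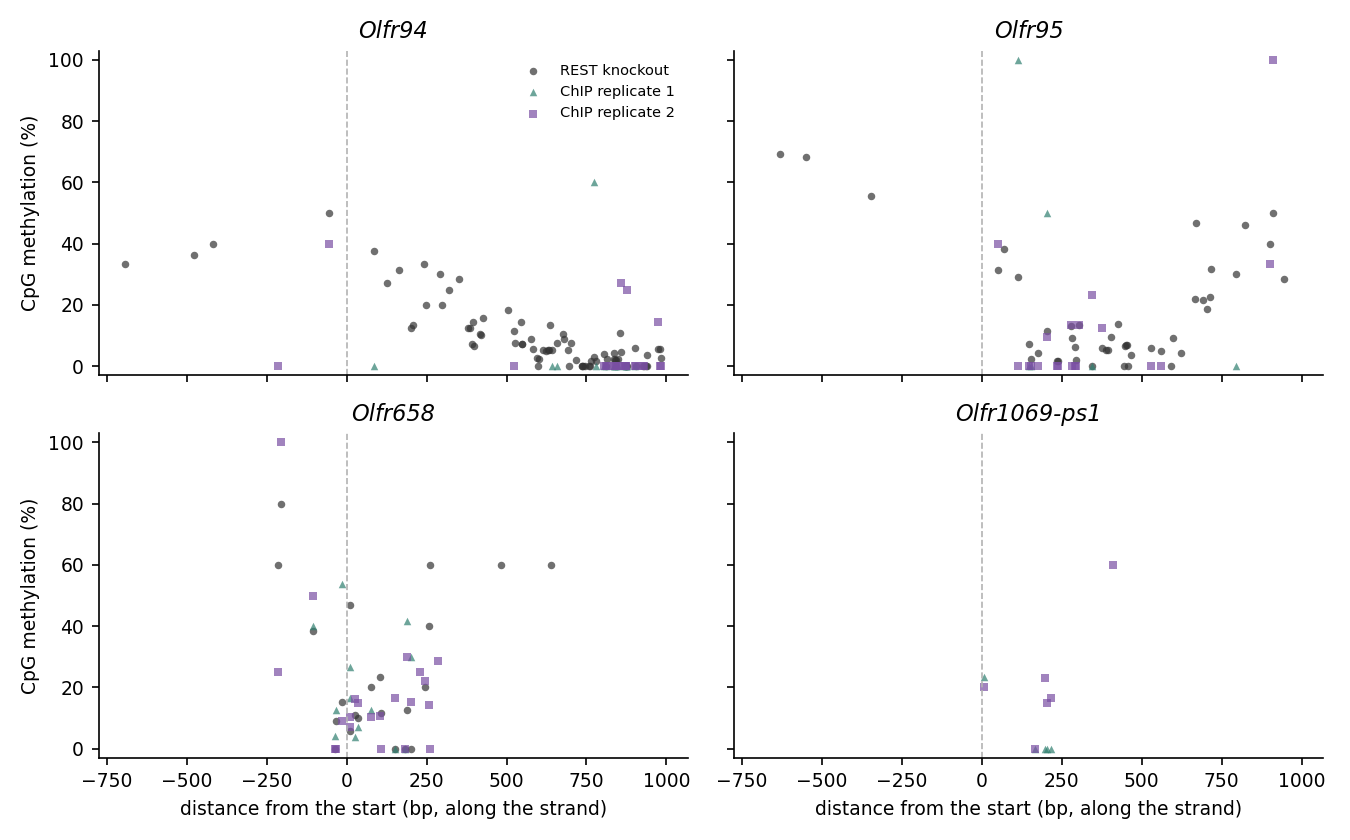
Methylation (percent) of single CpGs with at least 5 observations by distance from the TSS in bp at Olfr94, Olfr95, Olfr658 and Olfr1069-ps1, in the REST knockout library (circles) and in ChIP-BisSeq replicates 1 (triangles) and 2 (squares). The low CpGs of Olfr94 and Olfr95 lie downstream of the start and those of Olfr658 around it, and no knockout CpG of Olfr1069-ps1 reached 5 observations.

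Among the other members with the lowest knockout methylation and at least 30 observations, Olfr658 had 23.0% of 274 observations methylated (18.1 to 28.4) and is the only one of them that was also well covered in ChIP-BisSeq. Olfr164 was at 15.5% of 71 and Olfr937 at 17.6% of 34. Olfr1093 was at 23.7% of 38, Olfr1228 at 24.3% of 37, Olfr359-ps1 at 25.7% of 35, Olfr1110 at 27.3% of 33 and Olfr296-ps1 at 28.1% of 32. The low level was not seen again in the few ChIP-BisSeq observations of most of them. All observations were methylated in replicate 2 at Olfr164 (7), Olfr296-ps1 (5), Olfr1093, Olfr1228 and Olfr359-ps1 (1 each), and 92.0% of 25 at Olfr1110, while Olfr937 had 0 of 2. The highest levels were 92.5% of 53 observations at Olfr1374-ps1, 91.5% of 47 at Olfr1111, 91.1% of 45 at Olfr1162, 90.9% of 33 at Olfr1433 and 90.3% of 31 at Olfr2. Their intervals overlap, the lowest bound being 74.2% at Olfr2.

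Receptors that are well studied in sensory neurons were spread over the range of the family. Olfr2, a receptor for aldehydes such as octanal, was at the top, and Olfr151, an acetophenone receptor, was at 80.9% of 94 observations. Olfr78, which is also expressed in the carotid body and kidney, was at 66.7% of 15. Olfr17 was at 64.7% of 241, Olfr558 at 63.8% of 69, Olfr544 at 62.9% of 140 and Olfr1507 at 54.8% of 73. Olfr15 was at 51.1% of 229 observations, Olfr73, a eugenol receptor, at 48.8% of 43 and Olfr16, which is also expressed in the testis, at 47.2% of 89. Intervals of neighbours in this order overlap. The gene Olfr160 is not listed under that name in the annotation, and the model of Olfr151 spans its neighbourhood on chromosome 9, from 37518857 to 37538646.

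Receptor starts of different chromosomes overlapped widely in methylation. Over the 12 chromosomes with at least 20 measured starts, the median knockout methylation ran from 59.3% on chromosome 10 (53 starts) to 72.5% on chromosome 11 (93 starts), while the SD between starts of the same chromosome was 7.89 to 19.7 percentage points. With 6 to 20 CpGs, chromosome 10 receptor starts had a median of 58.3% (45 starts), against 70.0% at 289 other starts there. On chromosome 11 these medians were 70.8% (70 starts) and 69.7% (641). Chromosomes 2 and 7, which hold the most members, had medians of 64.0% (249 starts) and 67.8% (242). On chromosome 2, 100 starts fell short of the minimum, against 19 on chromosome 7, and the measured starts had a median of 9 CpGs against 13. On chromosome 17 the median was 66.7% over 50 starts, but the summed methylation was lower, with an interval of 35.5 to 37.7, where Olfr94 and Olfr95 hold 2587 and 1443 of 7631 observations.

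**Figure D4:**
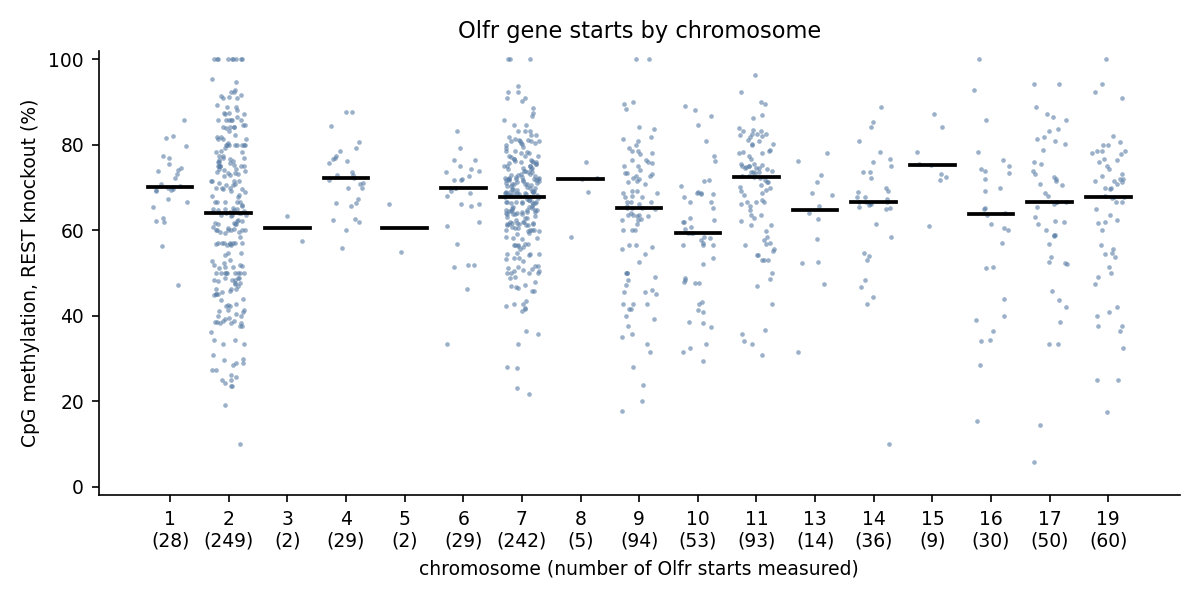
REST knockout methylation (percent) of each of 1025 measured Olfr starts by chromosome, with the number of starts in parentheses and the median as a black bar. Medians of chromosomes with at least 20 starts lie between 59.3% and 72.5%, and the points of every such chromosome overlap those of the others.

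The genes fall into 50 clusters when starts less than 1 Mb apart on a chromosome are joined, of which 11 hold a single gene. Among the 16 clusters with at least 20 measured starts, the median ran from 57.9% in the Olfr9 to Olfr827 cluster of chromosome 10 (46 starts) to 70.6% in the Olfr24 to Olfr18 cluster of chromosome 9 (28 starts). Among smaller ones, the Olfr56 to Olfr1380 cluster of chromosome 11 reached 80.0% over 17 starts. The class I cluster, from Olfr543 to Olfr692 around the beta-globin genes of chromosome 7, had 137 of 145 starts measured and a median of 67.9%, against 67.4% for the other clusters of that chromosome and 66.7% for all other clusters. The median of starts lay above or below the summed methylation of the DNA between the gene regions of the same cluster. That DNA had a median of 67.7% over 30 clusters (47.7% to 72.2%), and the median of starts was below it in 14 of these clusters. The differences had a median of 0.85 percentage points but ran from -11.0 to 19.2. Neighbouring starts in a cluster were not alike. Over 973 pairs of neighbours, which share a library, Pearson's r was 0.05 and the median absolute difference 12.8 percentage points.

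Summed methylation of each cluster was compared with that of all other receptor starts by Fisher's exact test, adjusted over the 30 clusters with at least 5 measured starts, and a cluster was called when all 3 libraries gave the same direction at an adjusted p below 0.05. This called 9 clusters higher (30% of those tested) and 1 lower (3.33%), the latter being Olfr90 to Olfr136 on chromosome 17, which holds Olfr94 and Olfr95. The calls depend on these genes. When Olfr94 and Olfr95 were left out, 4 clusters were higher and 0 lower: Olfr62 to Olfr1328 on chromosome 4, Olfr522 to Olfr541 on chromosome 7, and Olfr56 to Olfr1380 and Olfr30 to Olfr225 on chromosome 11, all of them among the 9. Of these 4, Olfr62 to Olfr1328 and Olfr522 to Olfr541 were not called within 500 bp of the TSS. Olfr30 to Olfr225 was not called without starts whose log2 ratio of ChIP-BisSeq to knockout coverage, defined further on, was at least 1. This leaves Olfr56 to Olfr1380 as the cluster called in each of these settings. In these 4, summed knockout methylation was 77.3%, 76.6%, 80.7% and 72.2%, with 95.8% of 48, 92.2% of 64, 100% of 49 and 86.1% of 151 observations in replicate 1 and 86.6% of 149, 89.6% of 250, 91.0% of 145 and 80.2% of 405 in replicate 2. The test counts observations and takes no account of the spread between starts of a cluster. With 1 cluster per chromosome, it called 6 of 15 chromosomes higher (1, 4, 6, 11, 14 and 19) and 2 lower (10 and 17). This setting was not repeated without Olfr94 and Olfr95. Across the 30 clusters, Spearman's rho of summed methylation was 0.39 between the knockout and replicate 1, 0.30 between the knockout and replicate 2 and 0.44 between the replicates.

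Methylation of receptor starts was higher in ChIP-BisSeq of wild type cells than in the knockout library. At starts with at least 10 observations the median was 100% in replicate 1 (92 starts), 88.2% in replicate 2 (254) and 89.2% with both pooled (384). At those 384 starts the knockout median was 68.8%, and pooled ChIP-BisSeq was higher at 326 (84.9%). The difference is not particular to the family, since other starts with 11 to 20 CpGs were higher in pooled ChIP-BisSeq at 2948 of 3757 (78.5%), with medians of 69.9% in the knockout and 87.1% in ChIP-BisSeq. Summed over all observations, the receptor starts differed less, at 66.2% in the knockout, 72.1% in replicate 1 and 70.3% in replicate 2. In that sum, the 131 starts with a high ChIP coverage ratio (at least 1, defined further on) stood at 55.6% in pooled ChIP-BisSeq and the other 894 at 78.1%. Their medians over starts with at least 10 pooled observations lay close together, at 88.2% (76 starts) and 89.5% (308). The gap in the sums is thus not one between typical starts of these sets.

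At 59 receptor starts each library had at least 10 observations. The medians there were 68.8% in the knockout, 93.3% in replicate 1 and 81.8% in replicate 2, with both replicates higher at 33 starts and both lower at 7. Across these starts, which share the same libraries, Pearson's r was 0.56 between the replicates, 0.58 between the knockout and replicate 1 and 0.72 between the knockout and replicate 2. A start was called when each replicate lay 20 or more percentage points above, or below, the knockout with an adjusted p below 0.05 (Fisher's exact test, adjusted over all 18742 gene starts tested). Of the 59, which were not limited by CpG number, 4 were called higher in ChIP-BisSeq (6.78%). The share was 2.03% of all starts and 5.08% of other starts with 6 to 20 CpGs. Olfr556, at 49.0% of 49 knockout observations, was at 100% of 10 in replicate 1 and 90.9% of 11 in replicate 2 (Fisher's exact test, adjusted p = 0.013 and 0.047). Olfr656, at 50.4% of 131, was at 100% of 11 and 95.7% of 23. Both lie in the class I cluster. The CpG-dense Olfr1349, at 58.1% of 1879, was at 97.1% of 35 and 83.3% of 60, and Olfr750, at 65.9% of 689, was at 88.9% of 27 and 100% of 52. One start was called lower, the pseudogene Olfr1069-ps1, against 1.92% of all starts. With the replicates pooled before the test, 94 of 384 receptor starts were called higher (24.5%), against 10.9% of all 26784 starts tested. Another 5 were called lower (1.30%), against 2.77% of all starts. With 6 to 20 CpGs, 77 of 291 receptor starts were called higher (26.5%) and 3 lower (1.03%). Of other starts with 6 to 20 CpGs, 21.3% were called higher and 4.27% lower.

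**Figure D5:**
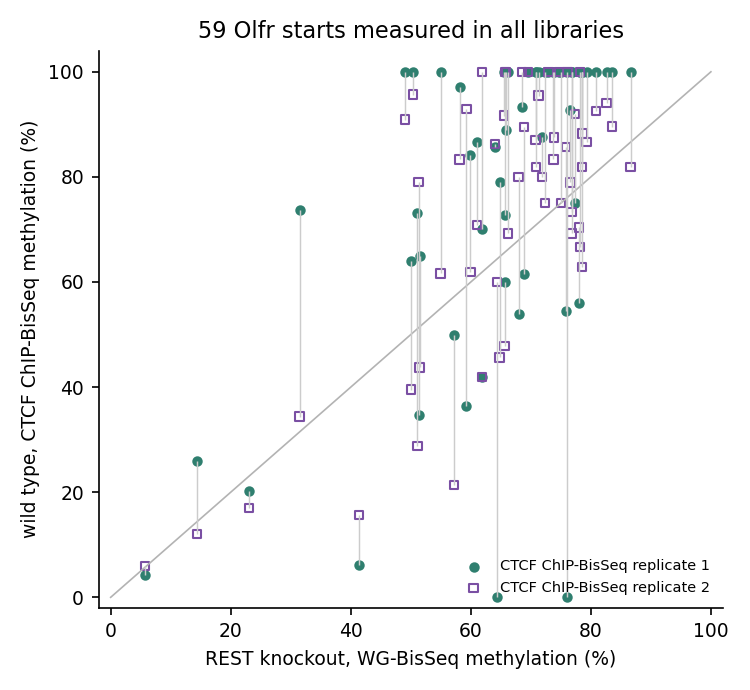
Methylation (percent) of the 59 Olfr starts with at least 10 observations in every library, REST knockout WG-BisSeq on the x axis and wild type CTCF ChIP-BisSeq on the y axis, with replicate 1 as filled circles and replicate 2 as open squares joined by a line for each start. Both replicates lie above the diagonal at 33 starts and below it at 7, and the lines show how far the replicates differ.

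CTCF ChIP coverage was measured as the log2 ratio of ChIP-BisSeq to knockout coverage per CpG, each divided by its library mean, after adding a pseudocount of 1. Receptor starts had a median of 0.01 and other starts -0.45, and the receptor median was -0.45 with a pseudocount of 0.25 and 0.62 with no upper limit on coverage. A ratio of at least 1 was found at 131 receptor starts (12.8%), close to the 11.4% of other starts, and these 131 had a median of only 16 knockout observations. Only 76 of the 131 had at least 10 pooled ChIP-BisSeq observations, so such a ratio does not by itself mean many ChIP observations. A ratio of at least 2 was found at 12 receptor starts (1.17%), against 3.55% of other starts. Exact matches to the CTCF consensus, searched on both strands within 1 kb of the TSS, were present at 17 receptor starts (1.66%), against 5.99% of other starts. The other starts hold more CpGs, and no share at like CpG number was taken. By coverage ratio, matches were present at 2 of the 131 receptor starts with at least 1 (1.53%) and 15 of the other 894 (1.68%). A match is only a description of the sequence.

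The highest ratio was 4.33 at the pseudogene Olfr1069-ps1. Its methylation was 41.4% of 29 observations in the knockout, 6.12% of 147 in replicate 1 and 15.6% of 141 in replicate 2 (Fisher's exact test against the knockout, adjusted p = 4.9e-05 and 0.014). The intronic stretch printed above lies under this coverage and overlaps a match to the CTCF consensus with 1 mismatch at chr2:86305053-86305065, on the plus strand, caccatctagtgg. Olfr658 had a ratio of 2.85, and its methylation was similar in all libraries, at 23.0% of 274 observations in the knockout, 20.3% of 246 in replicate 1 and 17.0% of 399 in replicate 2. Its low CpGs lay between 150 bp upstream and 300 bp downstream of the TSS, where methylation was 16.8% of 226, 19.3% of 243 and 15.1% of 383, and the region holds no match with up to 1 mismatch. Olfr304 (ratio 3.43) was at 50.0% of 36 in the knockout, 64.0% of 75 in replicate 1 and 39.5% of 86 in replicate 2. Olfr1368 (3.32) was at 31.5% of 89, 73.8% of 80 and 34.4% of 224. Olfr444 (2.78) was at 69.2% of 13, 89.3% of 28 and 100% of 6. High ChIP coverage thus came with low methylation at Olfr1069-ps1 and Olfr658 and with intermediate or high levels at the others.

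The ChIP-BisSeq replicates differed at 9 of the 59 receptor starts (15.3%), against 5.9% of all starts, by the same thresholds (chosen for naming after their values were seen). All starts tested had medians of only 6.87% in replicate 1 and 8.53% in replicate 2, so their share is not a like comparison. Replicate 1 was higher at 5 of the 9 (3.75% of all starts). Olfr15 was at 73.0% of 89 in replicate 1 and 28.8% of 257 in replicate 2, Olfr1368 at 73.8% of 80 and 34.4% of 224, Olfr304 at 64.0% of 75 and 39.5% of 86, Olfr718-ps1 at 100% of 19 and 61.6% of 99, and Olfr159 at 100% of 19 and 62.9% of 35. Replicate 2 was higher at the other 4 (2.15% of all starts), namely Olfr120 (0 of 10 and 100% of 14), Olfr6 (0 of 11 and 60.0% of 10), Olfr1052 (36.4% of 11 and 92.9% of 14) and Olfr66 (34.8% of 46 and 79.0% of 119). Of the 9 starts, 4 (Olfr15, Olfr1368, Olfr304 and Olfr66) had a ChIP coverage ratio above 2. Over all 59 starts the median absolute difference between the replicates was 15.8 percentage points.

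The starts of other chemosensory receptor families had median knockout methylation of 60.0% or more. The medians were 60.0% for 148 Vmn1r and 60.0% for 69 Vmn2r vomeronasal receptors, 72.8% for 14 trace amine-associated receptors (Taar), 62.2% for 25 bitter taste receptors (Tas2r) and 66.7% for 7 formyl peptide receptors (Fpr). Summed over observations, Vmn1r starts were lower, at 38.7% (37.6 to 39.8), as were Vmn2r starts, at 42.7% (41.2 to 44.3), against 66.2% for the olfactory receptors, and 4 of the 148 and 3 of the 69 lay below 20%. All of the 14 Taar starts were at 63.6% or more. Receptor starts with a start of another gene family within 1 kb were few, 6 in all, with a median of 56.6%. Of these, Olfr1358 on chromosome 10 was covered best, at 61.9% of 763 observations in the knockout, 42.0% of 219 in replicate 1 and 41.9% of 480 in replicate 2.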

How the data were processed

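For each library the authors deposited raw counts per CpG, the total and the methylated observations. Reads were aligned to mm9 with Bowtie 0.10.0.1 according to the submitters' processing notes, and PCR duplicate removal is not given in the sources used here. The PCR had more cycles for ChIP-BisSeq than for WG-BisSeq. The files hold 273375318 observations for the REST knockout and 13411280 and 25262179 for ChIP-BisSeq replicates 1 and 2. Every autosomal position listed is a CpG of mm9.

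Counts were summed over the CpGs within 1 kb of each GENCODE vM1 start, leaving out CpGs with more than 96 knockout observations, and methylation is methylated over total observations for regions with at least 10. Replicates were pooled by adding counts, as the study did. Libraries were compared by two-sided Fisher's exact test with Benjamini-Hochberg adjustment over all autosomal starts tested, which measures counting error between single libraries and not between cultures. The calling functions were tested on simulated counts drawn independently. Such counts leave out shared molecules, PCR copies and the spread between starts of a cluster, so they do not show how reliable the calls are. Python 3.11.15, NumPy 2.4.6, pandas 2.3.3, SciPy 1.17.1 and matplotlib 3.10.9 were used. The alternatives changed the minimum, the region, the coverage limit, the members, the replicates and the pseudocount.

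Named starts are the 10 lowest and 5 highest in the knockout with at least 30 observations, the 5 with the highest ChIP coverage ratio, the called starts, well studied receptors, and the clusters with at least 20 measured starts. The members and gene lists were chosen with earlier results of these data known, and the bins of CpG number after the counts were available. Sequences are from the mm9 genome. The sex chromosomes were not used here.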

Additional observations from a re-analysis of the deposited data

How the results depend on the processing

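No paired analysis was possible because the REST knockout group holds a single library and shares fewer than 2 replicate numbers with the ChIP-BisSeq group. The median knockout methylation of receptor starts was 67.2% within 500 bp, 66.0% within 2 kb, 70.4% as a mean of CpG levels, 67.3% for protein-coding members and 67.0% without other families' starts nearby. It was 70.4% with a minimum of 100 observations, an alternative chosen after seeing the data. Its difference from other starts was 25.5 percentage points with a minimum of 5 observations, 33.3 with 20, 38.2 within 500 bp, 21.1 within 2 kb, 26.6 as a mean of CpG levels, 28.2 for protein-coding members and 27.9 without other families' starts. It reversed to -3.03 for starts with 6 to 20 CpGs, also chosen after seeing the data. The ChIP-BisSeq median was 88.2% to 100% when a replicate was left out. Receptor starts called lower in ChIP-BisSeq numbered 0 within 500 bp, 4 within 2 kb, 0 for protein-coding members, 5 with pooled counts, 2 with no minimum difference and 4 to 5 when a replicate was left out. Those called higher numbered 9 with a minimum of 5 observations, 2 with 20, 2 within 500 bp, 9 within 2 kb, 94 with pooled counts and 24 to 50 when a replicate was left out, where more starts could be tested. Starts that differed between replicates numbered 15 with a minimum of 5 observations, 4 with 20, 5 within 500 bp and 19 within 2 kb. Clusters called numbered 6 within 500 bp, 4 without Olfr94 and Olfr95, and 6 without starts with a log2 coverage ratio of at least 1, the last 2 chosen after seeing the data. The median log2 coverage ratio was 0.13 with a minimum of 5 observations, -0.25 with 20, -0.45 within 500 bp, 0.34 within 2 kb, 0.62 with no upper limit on coverage, -0.45 with a pseudocount of 0.25 and 0.20 to 0.34 when a replicate was left out, so its sign depends on the setting. Recomputed values of named starts were set against their interval for counting error. Shifts of chromosome medians were set against the interval of the summed methylation, which does not measure the error of a median. Of 166 such values of named starts and of chromosomes, 30 moved beyond the interval used and 136 did not. Among those that moved, Olfr94 was at 20.5% within 500 bp, and within 2 kb Olfr2 was at 74.0% and Olfr359-ps1 at 53.3%. The cause of these shifts was not tested. At the depth of replicate 1, most receptor starts could not be compared at all.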

Other observations

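Genes that serve olfactory neurons, unlike the receptors themselves, mostly had low methylation around their starts in the REST knockout library. Of 18 such genes, 17 had observations, 12 of them below 20% and 5 above 50%. Low levels are not particular to these genes. Among protein-coding starts outside the receptor family, 61.6% of 19410 lay below 20% in the knockout library. Of the 13088 such starts with 41 or more CpGs, 89.0% did. The transcription factors Lhx2 (6.09%), Ldb1 (2.69%, a cofactor of LIM proteins), Ebf1 (5.49%), Emx2 (4.79%) and Atf5 (4.97%) were low, as were the signalling genes Adcy3 (3.45%) and Gnal (6.42%), which encode an adenylyl cyclase and a G protein subunit. The receptor transporters Rtp1 (87.5%) and Rtp2 (90.4%), the channel genes Cnga4 (68.0%) and Ano2 (65.0%) and the marker Omp (53.7%) were methylated. The low starts hold 68 CpGs or more and the methylated ones 57 or fewer.

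In the 300 bp upstream of the TSS, searched on both strands, the homeodomain core TAATTA was present at 21.3% of receptor starts and 6.15% of other gene starts, and TATAAA at 43.1% and 15.5%. The core of the Ebf site, CCCNNGGG, was present at 2.73% and 12.9%. These matches are a description of the sequence. For 376 models that begin upstream of the start codon, the shares were 20.5%, 40.2% and 5.05%.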
